A study of Mus musculus with 8 samples.

Results

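The 9 genes described here release cholesterol inside the lysosome, export it through the lysosomal membrane, or carry and control it at and beyond that membrane. They were chosen by gene symbol in the deposited expression table, which lists 24942 genes, and all 9 were found there. They are Lipa, Npc2, Npc1, Lamp1, Lamp2, Scarb2, Stard3, Stard4 and Tmem97. Levels were measured by RNA sequencing of retinal ganglion cells, the output neurons of the eye, from mice at postnatal day 8. There were 4 libraries from NPC1-deficient mice and 4 from wildtype littermates, both of the strain that the labels write as balb/cnctr-npc1m1n/j, and no agent is named for either group. The allele is germline, so every cell of an NPC1-deficient animal carries it, not the neurons alone. Cells were captured by immunopanning, in which antibody-coated dishes retain the wanted cells, and RNA was taken directly from the dish without culture. Whether each library is a separate animal is not stated in the labels, and the p-values below refer to the spread among these 8 libraries only.

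Cells take up cholesterol as esters in lipoproteins, which reach the late endosome and lysosome. There the acid lipase made from Lipa frees the sterol, the soluble protein NPC2 binds it, and the membrane protein NPC1 moves it out, after which contact-site and cytosolic carriers pass it to other membranes. Loss of NPC1 or NPC2 stores cholesterol in lysosomes and causes Niemann-Pick disease type C, in which neurons degenerate. Low sterol at the endoplasmic reticulum releases SREBP factors, which bind sterol regulatory elements, while TFEB and its relatives bind E-boxes in many lysosomal promoters.

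The promoters show which of these sequence elements the genes carry before their start sites. RefSeq promoter windows of 250 bases before the start (GRCm38.p6) were matched for 7 of the 9 genes. Npc1 and Stard4 had no matched window and were not searched. In the 7 windows, 4 motifs were searched on both strands: CACGTG, the E-box core, TCACNCCAC, a form of the sterol regulatory element, CCAAT, and GGGCGG. The windows of Lamp1, Stard3 and Tmem97 are printed because Lamp1 holds the only E-boxes found, and because the other two belong to genes whose groups did not overlap in the expression data. Capitals mark CACGTG, TCACNCCAC and CCAAT, the last written as ATTGG where it lies on the opposite strand, and GGGCGG stays in lower case. Each sequence runs 5′ to 3′ on the strand of its gene and ends at the base before the RefSeq start. The gene positions given below are from GENCODE, and the starts differ for some genes. By those positions the Scarb2 window lies wholly inside its gene, and the Npc2 and Tmem97 windows lie partly inside theirs.
Lamp1 (chr8:13158911-13159160, plus strand): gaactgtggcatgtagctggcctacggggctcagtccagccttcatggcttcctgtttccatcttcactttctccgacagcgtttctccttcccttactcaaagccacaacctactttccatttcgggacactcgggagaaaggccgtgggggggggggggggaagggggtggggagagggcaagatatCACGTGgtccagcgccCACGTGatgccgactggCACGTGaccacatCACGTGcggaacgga
Stard3 (chr11:98358118-98358367, plus strand): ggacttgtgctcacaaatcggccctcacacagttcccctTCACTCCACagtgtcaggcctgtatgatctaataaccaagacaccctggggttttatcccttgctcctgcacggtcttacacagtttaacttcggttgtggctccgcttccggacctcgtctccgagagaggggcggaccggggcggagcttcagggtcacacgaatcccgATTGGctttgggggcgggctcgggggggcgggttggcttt
Tmem97 (chr11:78550736-78550985, minus strand): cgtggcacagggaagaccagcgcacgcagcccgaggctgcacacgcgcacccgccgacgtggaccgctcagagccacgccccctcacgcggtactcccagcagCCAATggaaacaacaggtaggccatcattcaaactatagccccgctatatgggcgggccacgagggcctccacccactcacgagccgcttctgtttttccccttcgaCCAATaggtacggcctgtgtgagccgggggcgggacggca
The Lamp1 window held 4 copies of CACGTG, beginning 61, 45, 28 and 15 bases before the start. At least 4 copies were present in 7 of the 32851 RefSeq windows of this length (0.0213%), and at least 1 copy in 6.02%. Of the 7 windows matched here, Lamp1 alone held this motif. Stard3 held 1 copy of TCACNCCAC, 211 bases before its start, a motif present in 1.05% of all windows, and none of the other 6 windows held it. CCAAT was present in 5 of the 7 windows, with 2 copies each in Tmem97 and Npc2, against 33.8% of all windows. GGGCGG was also present in 5 of the 7, with 4 copies in Stard3 and none in Lamp1 or Lipa, against 32.7% of all windows. No matches of these motifs overlapped each other in the printed windows. A match is a string of letters, and binding was not measured.

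The deposited values are read counts divided by 1 size factor per library, called normalized reads here. The recovered library totals were 33030175 to 44050118 reads, and a value of 0 would allow up to 2.69 to 3.42 normalized reads (3 reads, counting error only). All 9 genes passed the minimum mean of 10 normalized reads, and 15386 genes in all were tested with limma on log2(value + 1), with Benjamini-Hochberg adjustment over all of them at 0.05. The 14 retinal ganglion cell markers, among them Rbpms, Pou4f1 and Sncg, were all detected. Their summed levels were 425143 to 451513 in NPC1-deficient and 398002 to 424971 in wildtype libraries, ranges that nearly touch. By their means, only 3 of the 14 were lower in NPC1-deficient cells, unlike most markers of other cells below. Markers of other retinal cells were present at lower sums, compared below by their means. Summed rod markers ran from 3966 to 4947 in NPC1-deficient and from 5777 to 13346 in wildtype libraries. All 12 genes were lower in NPC1-deficient cells and 8 were without overlap. Among all genes tested, 4.27% had groups without overlap in either direction. The 14 microglial markers summed to 1293 to 2792 in NPC1-deficient and 2393 to 12613 in wildtype libraries, and all 14 were lower in NPC1-deficient cells, 1 of them without overlap. Amacrine markers summed to 1413 to 2096 in NPC1-deficient and 2446 to 4719 in wildtype libraries, with all 7 lower and 4 without overlap. Müller glia and astrocyte markers summed to 7632 to 8256 in NPC1-deficient and 8413 to 9427 in wildtype libraries, with 5 of 6 lower and 2 without overlap. For bipolar markers the NPC1-deficient sums were 1526 to 1854 and the wildtype sums 1801 to 2297, with all 6 lower. For cone markers the NPC1-deficient sums were 45.4 to 101 and the wildtype sums 42.2 to 210, with all 5 lower. For endothelial and pericyte markers the NPC1-deficient sums were 303 to 507 and the wildtype sums 358 to 453, with 4 of 5 lower. No bipolar, cone, endothelial or pericyte marker had all its NPC1-deficient values below all its wildtype values. No marker listed was at 0 in every library, and the part of these cells in the results below was not tested. In bulk RNA, fewer cells of a type and less RNA per cell cannot be told apart.

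Npc1 was sharply reduced in NPC1-deficient cells, and it was the only 1 of the 9 genes to pass the threshold. Over all genes tested, 16 passed (0.104%). Of the other 8 genes, 7 were higher and 1 was lower on average in NPC1-deficient cells, none past the threshold. Among all genes tested, 52.0% had a log2 fold change above 0. The largest of these differences were those of Stard4 and Tmem97, at 0.37 and 0.26 on the log2 scale. The remaining 5 positive genes lay between 0.05 and 0.13. The groups did not overlap for 4 of the 9 genes (44.4%), namely Npc1 and Stard3 with the NPC1-deficient libraries below, and Stard4 and Tmem97 with the NPC1-deficient libraries above. Among all genes tested 4.27% had groups without overlap. These shares are a description and not a test, because Npc1 is the gene of the allele and the 9 genes were chosen with earlier results known. The median log2 fold change of the 9 genes was 0.08, against 0.00497 over all genes tested.

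**Figure D1:**
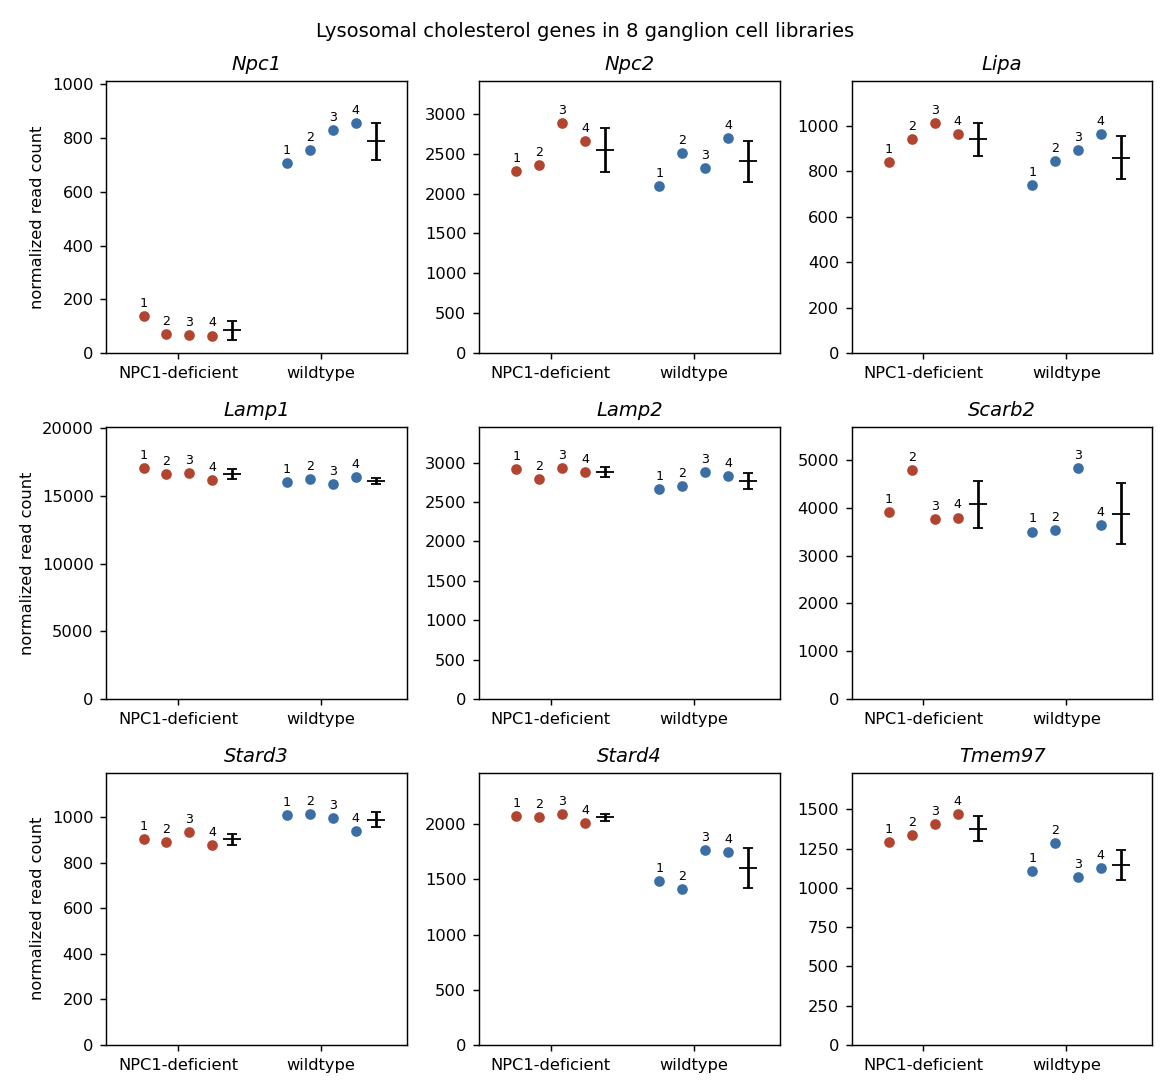
Normalized reads (vertical axes from 0) of each of the 9 genes in the 4 NPC1-deficient libraries (left in each panel, red) and the 4 wildtype libraries (right, blue), numbered as in the titles, with bars for the mean and SD of each group. Npc1 lies at 66.1 to 139.8 in NPC1-deficient and 707 to 857 in wildtype libraries, Stard4 and Tmem97 lie higher without overlap, Stard3 lower without overlap, and the other 5 genes overlap.

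Npc1 encodes the membrane exporter itself and is the gene whose allele the strain name gives (ENSMUSG00000024413, chromosome 18, 12189692 to 12236400, minus strand, mm10). It had 139.8, 70.045, 67.6 and 66.1 normalized reads in NPC1-deficient libraries 1 to 4, against 707, 754, 831 and 857 in wildtype libraries 1 to 4. Every NPC1-deficient library was far below every wildtype library, and NPC1-deficient 1 stood above its 3 fellows. The 4 NPC1-deficient values rested on 154, 70, 62 and 64 recovered reads, against 620 to 955 in wildtype. Npc1 fell, with a log2 fold change of -3.25 (SE 0.20) and the smallest p of all genes tested (limma adjusted p = 3.23e-05). An exact permutation test, two-sided, returned 0.0286, the lowest p that 70 assignments can reach. In libraries 1 and 2 alone the difference was -2.87, and in libraries 3 and 4 alone -3.64, a split used because a characteristics field gives these sets different genotype words. In that field, libraries numbered 1 or 2 are wildtype and those numbered 3 or 4 homozygous, whichever group their title gives. The level of Npc1 follows the titles.

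Values are given per gene and the kit does not mark strand, so neighbours that overlap Npc1 may bear on its residual reads. How reads in shared bases were counted is not given in the sources used here. Of its 11317 exonic bases, 511 (4.52%) are shared with Rmc1 on the opposite strand, listed under the older symbol 3110002H16Rik, and 90 (0.795%) with the antisense transcript Gm15956. Rmc1, which encodes part of the complex that activates the lysosomal GTPase Rab7, averaged 979 ± 74.3 normalized reads in NPC1-deficient and 958 ± 78.6 in wildtype libraries (SD, n = 4 each), a log2 fold change of 0.03 (SE 0.08, limma adjusted p = 0.995). Gm15956 had 10.9 to 17.6 normalized reads in NPC1-deficient and 12.1 to 15.3 in wildtype libraries, so the overlapping neighbours were at like levels in both genotypes. How many of the residual Npc1 reads fall in the shared bases was not analysed here. The ratio of Npc1 to Npc2 per kilobase of exons was 0.0167 ± 0.00858 in NPC1-deficient and 0.158 ± 0.0121 in wildtype libraries (SD, n = 4 each).

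Npc2 and Lipa act before NPC1, and neither passed the threshold. Npc2 (ENSMUSG00000021242, chromosome 12, 84754562 to 84773152, minus strand) had 2279.6, 2363, 2888 and 2654 normalized reads in NPC1-deficient libraries 1 to 4, against 2088, 2512, 2317 and 2694 in wildtype libraries 1 to 4. The groups overlap through most of their range, and the highest value is NPC1-deficient 3. On the log2 scale Npc2 differed by 0.08 (SE 0.09, 95% interval -0.11 to 0.28, limma adjusted p = 0.995). With 1 library left out it lay between 0.02, without wildtype 1 or NPC1-deficient 3, and 0.14, without wildtype 4. Lipa (ENSMUSG00000024781, chromosome 19, 34492318 to 34527474, minus strand) had 841, 942, 1015 and 964 normalized reads in NPC1-deficient libraries and 739, 845, 895 and 966 in wildtype libraries. In both genotypes library 1 was the lowest, and wildtype 2, 3 and 4 lay within the NPC1-deficient range. Lipa differed by 0.13 on the log2 scale (SE 0.09, 95% interval -0.06 to 0.32, limma adjusted p = 0.928), and between 0.06, without wildtype 1, and 0.19, without wildtype 4, with 1 library left out.

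Lamp1, Lamp2 and Scarb2 encode the heavily glycosylated proteins that make up much of the lysosomal membrane, and none passed the threshold. LAMP1 and LAMP2 line its inner face and have been found to bind cholesterol. Lamp1 (ENSMUSG00000031447, chromosome 8, 13159161 to 13175338, plus strand) had 17039, 16594, 16719.7 and 16191 normalized reads in NPC1-deficient libraries and 16000.3, 16218, 15851 and 16405 in wildtype libraries. The groups overlap only because NPC1-deficient 4 lies below wildtype 2 and 4. Lamp1 differed by 0.05 on the log2 scale (SE 0.04), with the narrowest interval of the 9 genes, from -0.04 to 0.13 at 95% (limma adjusted p = 0.979). Of the 2675 exonic bases of Lamp1, 249 (9.31%) are shared with Grtp1 on the opposite strand, which had 719.5 to 771 normalized reads in NPC1-deficient and 639.6 to 693 in wildtype libraries.

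Lamp2, whose product also serves autophagy and whose human loss causes Danon disease, lies on the X chromosome (ENSMUSG00000016534, 38401357 to 38456454, minus strand). It had 2919, 2794, 2927 and 2879 normalized reads in NPC1-deficient libraries, against 2668, 2702, 2876 and 2833 in wildtype libraries. The lowest NPC1-deficient library lay below wildtype 3 and 4, and the other 3 lay above every wildtype value. This is a log2 fold change of 0.06 (SE 0.05, 95% interval -0.05 to 0.16, limma adjusted p = 0.969). Xist, the RNA that coats the inactive X chromosome of female cells, had 68.1, 3.00193, 1.09 and 0 normalized reads in NPC1-deficient libraries and 595, 18.2, 238 and 164 in wildtype libraries. The libraries therefore differ in their content of female RNA. It ran mostly lower in NPC1-deficient libraries, though wildtype 2 lay below NPC1-deficient 1, so it lies partly along genotype. Its part in the level of Lamp2, or of any other gene named here, X-linked or not, was not tested. The ratio of Lamp1 to Lamp2 per kilobase was 20.6 ± 0.494 in NPC1-deficient and 20.8 ± 0.827 in wildtype libraries (SD, n = 4 each).

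Scarb2 encodes LIMP-2, which brings glucocerebrosidase to the lysosome and has a channel through its luminal domain that can carry cholesterol (ENSMUSG00000029426, chromosome 5, 92441314 to 92506833, minus strand). It had 3915, 4798, 3763 and 3796 normalized reads in NPC1-deficient libraries, against 3503, 3529, 4823 and 3634 in wildtype libraries. A single library in each genotype, NPC1-deficient 2 and wildtype 3, stood well above the rest, and the other 3 NPC1-deficient values lay above the other 3 wildtype values. Over all libraries Scarb2 differed by 0.08 on the log2 scale (SE 0.11, 95% interval -0.15 to 0.31, limma adjusted p = 0.995). Without NPC1-deficient 2 it was -0.004736, and in libraries 3 and 4 alone it was -0.15 (limma adjusted p = 0.586), so its direction rests on single libraries.

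Stard3 and Stard4 encode START-domain proteins, which hold a sterol in a closed pocket. STARD3 is anchored in the late endosome membrane and tethers it to the endoplasmic reticulum, while STARD4 is soluble and moves cholesterol between membranes in the cytosol. Stard3 (ENSMUSG00000018167, chromosome 11, 98358368 to 98381112, plus strand) had 903, 892, 933 and 879 normalized reads in NPC1-deficient libraries, against 1008, 1012, 995 and 940.2 in wildtype libraries. All 4 NPC1-deficient values lay below all 4 wildtype values, but NPC1-deficient 3 and wildtype 4 nearly touched. Stard3 differed by -0.13 on the log2 scale (SE 0.06, 95% interval -0.26 to -0.01), which did not pass (unadjusted p = 0.0411, limma adjusted p = 0.685).

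Stard4 had the largest positive difference of the 9 genes (ENSMUSG00000024378, chromosome 18, 33199355 to 33213862, minus strand). It had 2074, 2067, 2091 and 2011 normalized reads in NPC1-deficient libraries, against 1488, 1416, 1768 and 1749 in wildtype libraries. The NPC1-deficient values lay close together above every wildtype value, while the wildtype values fell into a lower pair, libraries 1 and 2, and a higher pair, libraries 3 and 4. The coefficient of variation was 1.68% in NPC1-deficient and 11.2% in wildtype libraries, and this difference in spread was not tested. The means were 2061 ± 34.5 in NPC1-deficient and 1605 ± 179.7 in wildtype libraries (SD, n = 4 each). This gave a log2 fold change of 0.37 (SE 0.07, 95% interval 0.20 to 0.53), a level 29.0% higher, and it ranked 67 of all genes by p. With an adjusted p of 0.0796 in limma it missed the threshold. It passed with DESeq2 on the recovered reads (adjusted p = 0.00191), and in limma with the library set as a term (adjusted p = 0.0242). The ratio of Stard4 to Stard3 per kilobase ran from 1.43 to 1.48 in NPC1-deficient and from 0.891 to 1.185 in wildtype libraries.

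Tmem97 encodes the sigma-2 receptor, a membrane protein of the endoplasmic reticulum and endosomes that binds NPC1 and was found in human cells to lower its protein level (ENSMUSG00000037278, chromosome 11, 78541817 to 78550777, minus strand). It had 1289.5, 1337, 1407 and 1469 normalized reads in NPC1-deficient libraries, against 1108, 1286, 1071 and 1127 in wildtype libraries. Every NPC1-deficient value was above every wildtype value, by a margin of only a few reads between NPC1-deficient 1 and wildtype 2. The means were 1376 ± 79.0 in NPC1-deficient and 1148 ± 94.7 in wildtype libraries (SD, n = 4 each). For Tmem97 the log2 fold change was 0.26 (SE 0.07, 95% interval 0.11 to 0.42), a level 20.0% higher, and the limma adjusted p of 0.196 did not pass. As background, Stard4 and Tmem97 are known targets of SREBP2. The Tmem97 window printed above held no TCACNCCAC, and no window was matched for Stard4.

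**Figure D2:**
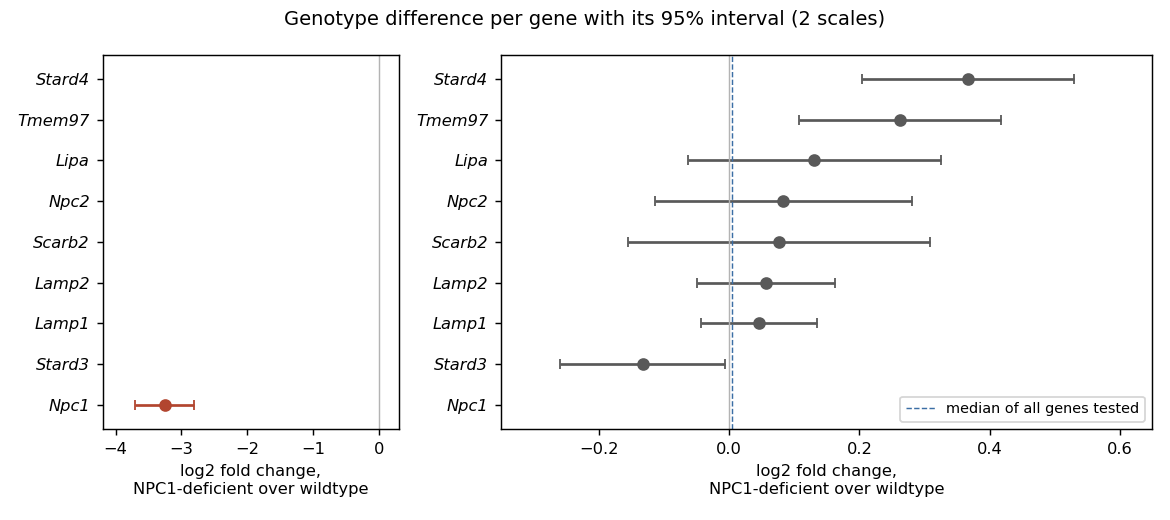
Log2 fold change of each gene, NPC1-deficient over wildtype, with its 95% interval from limma, on a wide scale at left for Npc1 (red, the only gene past the threshold) and a narrow scale at right for the other 8 (grey), with the median of all genes tested as a dashed line. The intervals of Stard4, Tmem97 and Stard3 do not include 0, and those of the other 5 genes on the right do.

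The genotype difference of Stard4 was not the same size in the library sets. Within libraries 1 and 2 it was 0.51 on the log2 scale (limma adjusted p = 0.0150), and within libraries 3 and 4 it was 0.22 (limma adjusted p = 0.120). The NPC1-deficient values of Stard4 were alike in both sets, whereas the wildtype values were not. For Tmem97 the order was the other way, at 0.14 in libraries 1 and 2 (limma adjusted p = 0.698) and 0.39 in libraries 3 and 4 (limma adjusted p = 0.0179). Scarb2 was at 0.30 in libraries 1 and 2 and at -0.15 in libraries 3 and 4. Tested as an interaction over all 8 libraries, the difference between sets was -0.29 for Stard4 (SE 0.09, limma adjusted p = 0.220), 0.25 for Tmem97 (SE 0.12, limma adjusted p = 0.384) and -0.45 for Scarb2 (SE 0.17, limma adjusted p = 0.276). For Npc1 it was -0.77 (SE 0.33, limma adjusted p = 0.347). None of the 9 genes passed the limma test of the interaction, which 12 genes did in all (0.078%), and 3 of the 9 had an unadjusted p below 0.05, as did 13.4% of all genes tested. The labels do not say what the sets are beyond the genotype words, so a batch could not be named.

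**Figure D3:**
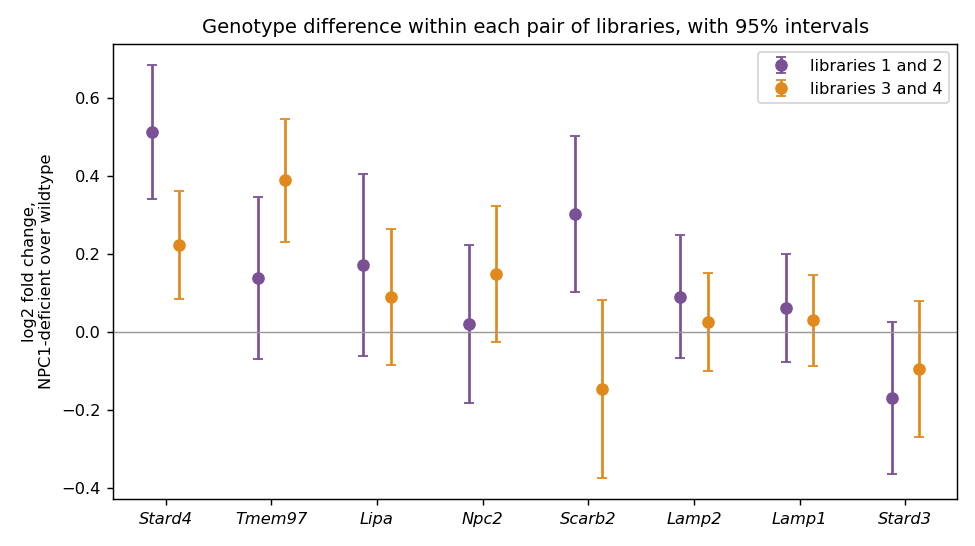
Log2 fold change, NPC1-deficient over wildtype, with 95% intervals, computed in libraries 1 and 2 alone (purple) and in libraries 3 and 4 alone (orange) for the 8 genes other than Npc1. Stard4 is at 0.51 and 0.22, Tmem97 at 0.14 and 0.39, and Scarb2 changes sign between the sets, at 0.30 and -0.15.

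Set against each other per kilobase of exons, the 9 genes spanned a wide range of levels. Lamp1 was highest, at 6219 ± 131 normalized reads per kilobase in NPC1-deficient and 6026 ± 91.0 in wildtype libraries (SD, n = 4 each), above 97.9% of the genes tested. Tmem97 was next, at 1001 ± 57.4 in NPC1-deficient and 835 ± 68.9 in wildtype libraries. Scarb2 was at 647 ± 78.1 in NPC1-deficient and 616 ± 101 in wildtype libraries, and Npc2 at 468 ± 51.3 in NPC1-deficient and 442 ± 47.8 in wildtype libraries. These 4 genes did not overlap their neighbours in the order in either genotype. Lamp2, Stard4 and Stard3 lay in the middle. Lamp2 was at 301 ± 6.40 in NPC1-deficient and 289.97 ± 10.5 in wildtype libraries, Stard4 at 369 ± 6.18 in NPC1-deficient and 287 ± 32.2 in wildtype libraries, and Stard3 at 253 ± 6.54 in NPC1-deficient and 278 ± 9.33 in wildtype libraries. In NPC1-deficient libraries the ranges of these 3 were apart, with Stard4 at 360.1 to 374, Lamp2 at 292 to 306 and Stard3 at 247 to 262. In wildtype libraries they overlapped, from 253 to 316 for Stard4, 279 to 301 for Lamp2 and 264 to 285 for Stard3. Lipa followed at 139 ± 10.8 in NPC1-deficient and 127 ± 14.1 in wildtype libraries, and Npc1 was lowest, at 7.59 ± 3.18 in NPC1-deficient and 69.5 ± 6.10 in wildtype libraries. In wildtype cells Npc1 was still above 41.7% of the genes tested. The order of Npc2, Lamp2, Stard4 and Stard3, and the spacing from Tmem97 to Lipa, depend on the length assumed. With the length of the principal transcript in place of all exons, the means per kilobase were 799 in NPC1-deficient and 769 in wildtype libraries for Lamp2, above those of Npc2, at 772 in NPC1-deficient and 728 in wildtype libraries. Stard3 then stood above Stard4 in both genotypes, at 436 in NPC1-deficient and 478 in wildtype libraries, against 404 in NPC1-deficient and 315 in wildtype libraries for Stard4. Tmem97, at 835, and Scarb2, at 824, then came close together in wildtype libraries.

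**Figure D4:**
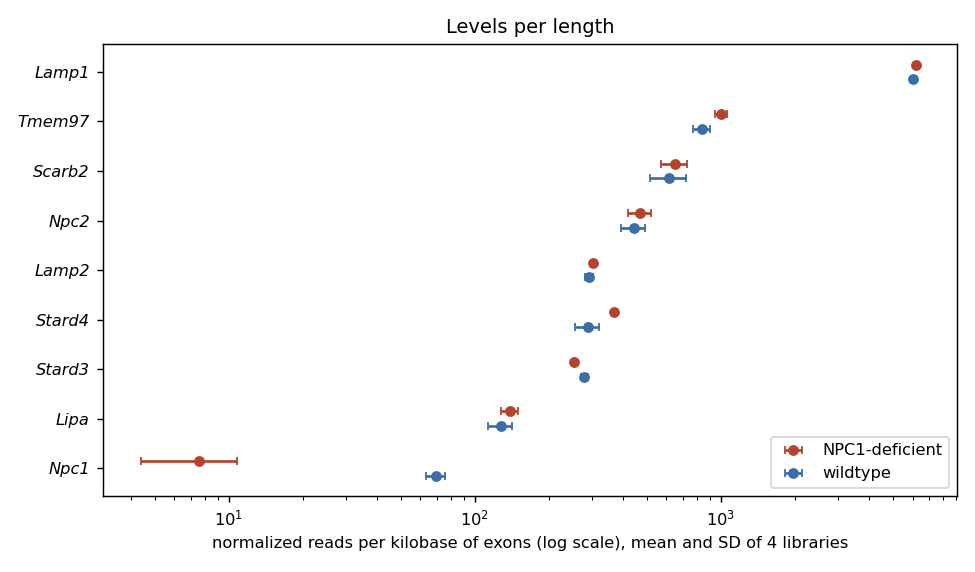
Normalized reads per kilobase of exons on a log scale, as mean and SD of 4 NPC1-deficient (red, upper) and 4 wildtype libraries (blue, lower), in the wildtype order. Lamp1 lies at 6219 in NPC1-deficient and 6026 in wildtype libraries, and Npc1 at 7.59 in NPC1-deficient and 69.5 in wildtype libraries. Stard4 lies at 369 in NPC1-deficient and 287 in wildtype libraries. The places of Npc2, Lamp2, Stard4 and Stard3 change with the transcript length assumed.

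The genes whose log2 levels followed the 3 genes of smallest p most closely over the 8 libraries were found by Pearson correlation, given as a description because the libraries also share genotype and depth. For Npc1 they were Mlc1 (r = 0.978) and Dusp1 (r = 0.978). For Stard4 they were Has1, a hyaluronan synthase (r = 0.967), and Mtmr11 (r = 0.959). For Tmem97 they were Amd1, a polyamine synthesis enzyme (r = 0.981), and Irx1, a homeobox factor (r = 0.977). None of these 6 passed the limma test of genotype, with adjusted p values from 0.0679 for Dusp1 to 0.623 for Irx1.

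Other genes of the pathway were read from lists, chosen with earlier results of these data known. Among 24 genes of lysosomal sterol transfer and contact sites, all tested, none passed, 13 were positive and 11 negative, and the median log2 fold change was 0.02. The smallest p values were those of Mospd2, a contact-site tether, at 0.29 (limma adjusted p = 0.554), Gramd1a, an Aster sterol carrier, at 0.12 (limma adjusted p = 0.663), and Osbpl2, an oxysterol-binding protein relative, at 0.10 (limma adjusted p = 0.685). Osbpl2 averaged 2919.9 ± 66.1 normalized reads in NPC1-deficient and 2719 ± 16.8 in wildtype libraries (SD, n = 4 each) and was the only 1 of the 24 without overlap.

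Of 19 further lysosomal membrane protein genes 18 were tested, and none passed, with 12 positive, 6 negative and a median of 0.02. Lamp5, a brain relative of Lamp1 and Lamp2, had the smallest p, at 61.8 ± 17.3 normalized reads in NPC1-deficient and 145 ± 44.0 in wildtype libraries without overlap (SD, n = 4 each), a log2 fold change of -1.21 (SE 0.25, limma adjusted p = 0.0796). Laptm4b, at 3991 ± 385 in NPC1-deficient and 4543 ± 96.5 in wildtype libraries, was at -0.19 (limma adjusted p = 0.395), and Cd68, a macrophage and microglial protein, at -0.64 (limma adjusted p = 0.828). Among 15 lipid hydrolases and activators none passed, 6 were positive and 9 negative, and the median was -0.03. Glb1 and Asah1 were each at 0.11 (limma adjusted p = 0.892 and 0.899). Cd68 lay in the same direction as the microglial markers given above, whose part here was not tested.

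Among the lipoprotein receptor genes, which feed cholesterol into this route, 8 of 9 were tested, none passed, 7 were positive and 1 negative, and the median was 0.08. Lrp1, a large endocytic receptor, averaged 485 ± 54.6 normalized reads in NPC1-deficient and 376 ± 51.9 in wildtype libraries (SD, n = 4 each, log2 fold change 0.37, limma adjusted p = 0.333). Of 16 sterol-regulated synthesis genes 15 were tested. All 15 were positive with a median of 0.34. Groups did not overlap for 14, against 4.27% of all genes tested, and 5 rose past the threshold, against 0.104%. Among these, the log2 fold change was 0.48 for Fdps, 0.47 for Mvd, 0.40 for Nsdhl and 0.35 for Mvk, with limma adjusted p values from 0.0273 to 0.0312. The differences of Stard4 and Tmem97, 0.37 and 0.26, lay within the range of these 15, which ran from 0.24 for Hmgcs1 to 0.48 for Fdps, while those of Npc2, Lipa, Lamp1, Lamp2 and Scarb2 lay below it.

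**Figure D5:**
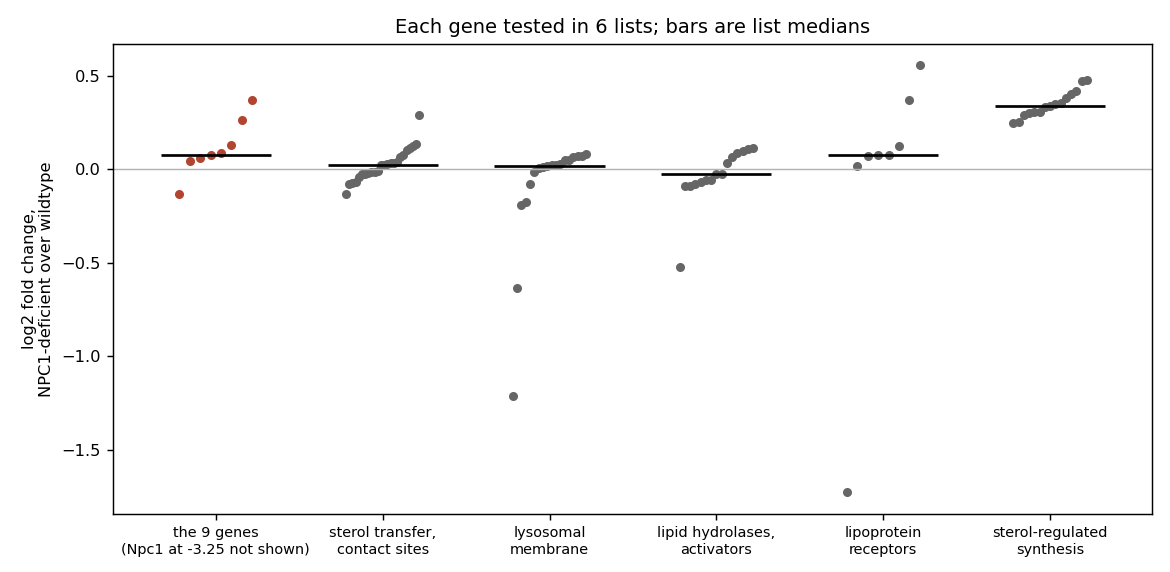
Log2 fold change, NPC1-deficient over wildtype, of each gene tested among the 9 genes (red, Npc1 at -3.25 is off the scale) and in 5 related lists (grey), with bars at the list medians. The synthesis genes lie at 0.24 to 0.48 with a median of 0.34, while the medians of the transfer, membrane and hydrolase lists lie at 0.02, 0.02 and -0.03.

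Structural relatives of the 9 genes were read in the same way. Of 15 symbols listed as relatives of Stard3 and Stard4, 11 were tested and none passed, with 3 positive, 8 negative and a median of -0.07. Of these symbols, Col4a3bp and Cert1 name the same gene. Stard3nl, a positive gene at 0.03, is related to Stard3 but lacks the START domain. Dlc1 was at -0.22 (limma adjusted p = 0.862), Col4a3bp, the ceramide carrier, at -0.07 (limma adjusted p = 0.967), and Stard5 at -0.12 (limma adjusted p = 0.995). Of the 4 genes that share the EXPERA fold with Tmem97, none passed, 2 were positive and 2 negative, and the median was -0.04. Ebp, a sterol isomerase of cholesterol synthesis, averaged 1809.5 ± 119.9 normalized reads in NPC1-deficient and 1435 ± 132 in wildtype libraries without overlap (SD, n = 4 each), at 0.34 (SE 0.07, limma adjusted p = 0.107). Ebpl was at -0.12 (limma adjusted p = 0.969) and Tm6sf2 at -0.32 (limma adjusted p = 0.972).

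Of 9 genes that share the sterol-sensing domain with Npc1, 7 were tested, none passed, 5 were positive and 2 negative, and the median was 0.07. Dhcr7, a sterol reductase that is also on the synthesis list, was at 0.30 without overlap (limma adjusted p = 0.0679). Ptch1, the Hedgehog receptor, was at -0.22 (limma adjusted p = 0.953). The 3 relatives of Npc2 with the same lipid-binding fold were all tested and none passed, with 1 positive, 2 negative and a median of -0.06. Ly86, a gene of myeloid cells that also stands on the microglial list, averaged 91.7 ± 35.8 normalized reads in NPC1-deficient and 409 ± 271 in wildtype libraries (SD, n = 4 each), at -1.90 (limma adjusted p = 0.175). Gm2a, the activator of ganglioside breakdown, was at -0.06 and Ly96 at 0.06 (limma adjusted p = 0.995 for both).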

How the data were processed

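RNA of purified retinal ganglion cells was sequenced in 4 NPC1-deficient and 4 wildtype libraries made with a strand-blind TruSeq kit named in the labels' protocols. The submitters' processing notes name the build mm10 and, without roles, HTSeq 0.5.4p3, CASAVA 1.8.2 and DESeq2 1.0.19. An aligner or annotation release is not given in the sources used here. Values as deposited are a normalized signal, the read count of a gene over the size factor of its library: all 199536 values were whole reads within 1e-06 of a read.

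Groups follow titles and descriptions. Genes with a mean of at least 10 were tested (15386, leaving out 9556) on log2(value + 1), which understates fold changes of low genes, with limma 3.58.1 in R 4.3.3, a mean-variance trend, no covariate, and Benjamini-Hochberg adjustment over all genes. The fit was checked on simulated data with the same dispersion for every gene and no effect of library set. That check therefore cannot speak to the differences between sets given above. The interaction of genotype and library set was fitted apart. Alternatives were pseudocounts of 0.5 and 5, a minimum of 50 or none, upper-quartile or quantile scaling, robust moderation, edgeR 4.0.16 and DESeq2 1.42.0 on recovered reads, a replicate block, a library set term, either set by itself, and leaving out libraries. Overlap of groups under left-out libraries and the principal transcript length were added after the data were seen.

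Gene positions and exon lengths came from GENCODE M21, on the same build as mm10, in which 24471 of 24942 gene IDs (98.1%) were found, and promoter windows from RefSeq. Named genes were the 9 members, Rmc1, the genes of each list past the threshold or with the 3 smallest p values, and for the 3 members of smallest p the 2 most correlated genes. Some genes that this rule names are not reported here. Xist, Gm15956, Grtp1, Hmgcs1 and the genes of the closing observations were added after their values were seen. Members and lists were chosen with earlier results of these data known.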

Additional observations from a re-analysis of the deposited data

Results flagged for a closer look

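In each of the 18 groups of 4 libraries (9 genes in 2 genotypes), the highest or lowest library was compared with the rest of its group by its gap to the nearest library over the range (Dixon's rule at the 95% level), and 3 libraries stood apart. Chance gives this in about 1 in 20 groups. Npc1 in NPC1-deficient 1 had 139.75 normalized reads, the next library of its group had 70.045, and the gap was 0.946 of the range. It is still 17.8% of the wildtype mean. Scarb2 in NPC1-deficient 2 had 4798.08 normalized reads, the next had 3915, and the gap was 0.854 of the range. Scarb2 in wildtype 3 had 4822.68, the next had 3634, and the gap was 0.900 of the range. The cause of these values was not tested.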

How the results depend on the processing

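Npc1 kept its direction and its call in all 23 alternatives, from -3.64 to -2.87 on the log2 scale (limma, edgeR and DESeq2 adjusted p from 1.27e-58 to 0.000522), and from -3.51 to -3.16 with a library left out. The number of the 9 genes past the threshold was 2 in place of 1 with DESeq2, with the library set as a term and in libraries 1 and 2 alone, where Stard4 passed at 0.36, 0.37 and 0.51, and 2 in libraries 3 and 4 alone, where Tmem97 passed at 0.39. Over all alternatives Stard4 lay between 0.22 and 0.51 (adjusted p of limma, edgeR or DESeq2 from 0.00191 to 0.194) and Tmem97 between 0.14 and 0.39 (from 0.0179 to 0.698). Scarb2 reversed to -0.1476 in libraries 3 and 4 alone and to -0.004736 without NPC1-deficient 2, and was at 0.1871 without wildtype 3. The other 5 genes kept their direction and stayed short of the threshold throughout, but Npc2 ranged from 0.02 to 0.15, Lipa from 0.06 to 0.19, Lamp1 from 0.02 to 0.06, Lamp2 from 0.02 to 0.09 and Stard3 from -0.17 to -0.09. Groups of 7 of the 9 genes did not overlap in libraries 1 and 2 alone, where 40.2% of all genes did not. In libraries 3 and 4 alone it was 5 of the 9, against 44.2% of all genes. Without both libraries numbered 1 it was 4, against 12.6%. With 1 library left out it was 4 to 5, against 6.24% to 8.76%. The cause of these shifts was not tested. No scaling moved the median of all genes by over 0.1.

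The 16 genes that passed in limma over all genes became 246 with DESeq2, 99 with the library set as a term, 57 in libraries 1 and 2 alone, 335 in libraries 3 and 4 alone, 10 with a minimum of 50, 170 without both libraries numbered 1, and 2 (without NPC1-deficient 3) to 144 (without wildtype 1) with 1 library left out. With the replicate block 34 genes passed, 1 of the 9 among them (Npc1), and Stard4 was at 0.37 (limma adjusted p = 0.0787). Libraries of the same number correlated at -0.0169, -0.0325, -0.0229 and -0.0659 in their deviations, so no positive correlation by number was seen. Such a correlation sums up many genes in 1 value, so it cannot decide whether the numbers pair the libraries for some genes. More genes passed with the replicate block than without it, 34 against 16. Depth was not limiting for the 8 genes other than Npc1, which had at least 648 reads in every library.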

Other observations

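Among the related genes, several abundant lysosomal transcripts had nearly equal means in both genotypes. Psap, the precursor of the saposins that lysosomal lipid hydrolases need, averaged 13074 normalized reads per kilobase of exons in NPC1-deficient and 13291 in wildtype libraries, more than Lamp1, a log2 fold change of -0.03 (SE 0.06, limma adjusted p = 0.995). Laptm4a, a small protein of the late endosome and lysosome membrane, averaged 8454 per kilobase in NPC1-deficient and 8302 in wildtype libraries, with a log2 fold change of 0.02 (SE 0.06, limma adjusted p = 0.995). Rab7, the GTPase of late endosomes that Rmc1 helps to activate, averaged 7431 per kilobase in NPC1-deficient and 7318 in wildtype libraries, with a log2 fold change of 0.02 (SE 0.04, limma adjusted p = 0.995). Smpd1, the acid sphingomyelinase lost in Niemann-Pick disease types A and B, averaged 6435 ± 302 normalized reads in NPC1-deficient and 6163 ± 367 in wildtype libraries (SD, n = 4 each), with a log2 fold change of 0.06 (SE 0.06, limma adjusted p = 0.977).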
